A study of Trametes cinnabarina with 16 samples.

Results

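In strain PB94 of Pycnoporus cinnabarinus, a white-rot fungus also called Trametes cinnabarina, the genes raised by every soluble sugar numbered 14 of 27990 assembly genes. They were chosen by their measured levels. The lowest value over the 3 cellobiose libraries, the glucose library and the first and second maltose libraries had to be at least 10 TPM and at least 1.5 times the highest value of the 3 control libraries. TPM is an RNA level corrected for transcript length, expressed so that each library adds up to 1000000. Genes whose lowest cellobiose value was at least 4 times the highest value of all other libraries would have been dropped, and 0 were. The difference between the sugars and control is therefore how the genes were found and is described here without a test.

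RNA came from whole cultures of strain PB94 grown from an agar cube in semi-minimal medium for at least 5 days. The added energy source was cellobiose (3 libraries), glucose (1), maltose (3), switchgrass (3) or poplar (3), and the control cultures (3 libraries) had none. Per the labels' protocols, the sugar and control libraries were made from poly-A RNA and the switchgrass and poplar libraries from total RNA after removal of ribosomal RNA; the effect of a plant substrate and that of the preparation cannot be told apart. The labels do not state whether replicate libraries came from independent cultures, so the spread behind every p-value is that between libraries and may be technical. Whether a lower level means less RNA per cell or fewer cells of some kind in the culture cannot be told apart in such bulk samples. The label of the gene set matched the tables only for the libraries its rule used: in the third maltose library 0 of the 14 genes were above the highest control value, beside 4.36% of all tested genes.

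White-rot fungi digest wood outside the cell and take up the sugars released. Cellobiose, the β-linked glucose dimer that cellulases release from cellulose, is split by β-glucosidases or oxidised by cellobiose dehydrogenase. Maltose, the α-linked dimer from starch, is split by α-glucosidases. Both yield glucose, which enters glycolysis and in many fungi represses genes for other carbon sources. The deposited tables pair no gene names or functions with their assembly identifiers, and 0 identifiers matched the 10441 genes of the reference list, so the genes are given by identifier and no role is assigned to them. In an identifier such as TR4186__c1_g2 the first part is an assembly component and the last the gene within it; isoforms of a gene end in i1, i2 and so on.

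Some libraries stand apart. The 10 most abundant genes held 6.57% to 12.7% of TPM in the sugar and control libraries other than the third maltose library, and 83.7% in that library. They held between 25.6% and 50.8% in the switchgrass libraries and between 30.7% and 75.3% in the poplar libraries, the highest in the third switchgrass and second poplar libraries. Since TPM adds up to a fixed total, plant libraries are also given with median-of-ratios scaling, which divides each library by the median ratio of its genes to their geometric mean over libraries. The deposited tables hold the same values in 16 of 16 columns but under different names in all of them (0 columns with the same name). The names of the table that the selection rule cites were used, and every direction below depends on that choice. Under the names of the other table the rule finds 6 genes, of which 0 are among the 14.

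Few genes met the rule. A level of at least 10 TPM in all 6 sugar libraries of the rule was reached by 7248 genes, and 207 of these also had every sugar value above every control value. Without the minimum level 598 genes, 2.51% of those tested, had all sugar values above control. The 14 genes lay just above the 1.5-fold line: the ratio of the lowest sugar value to the highest control value ran between 1.5 and 2.40, with a median of 1.67, and was at least 2 in 3 genes. The share of all 23822 tested genes that met the rule, 0.0588%, is the rule's own count and supports nothing. The opposite requirement, a lowest control value of at least 10 TPM and 1.5 times the highest sugar value, was met by 242 genes.

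**Figure D1:**
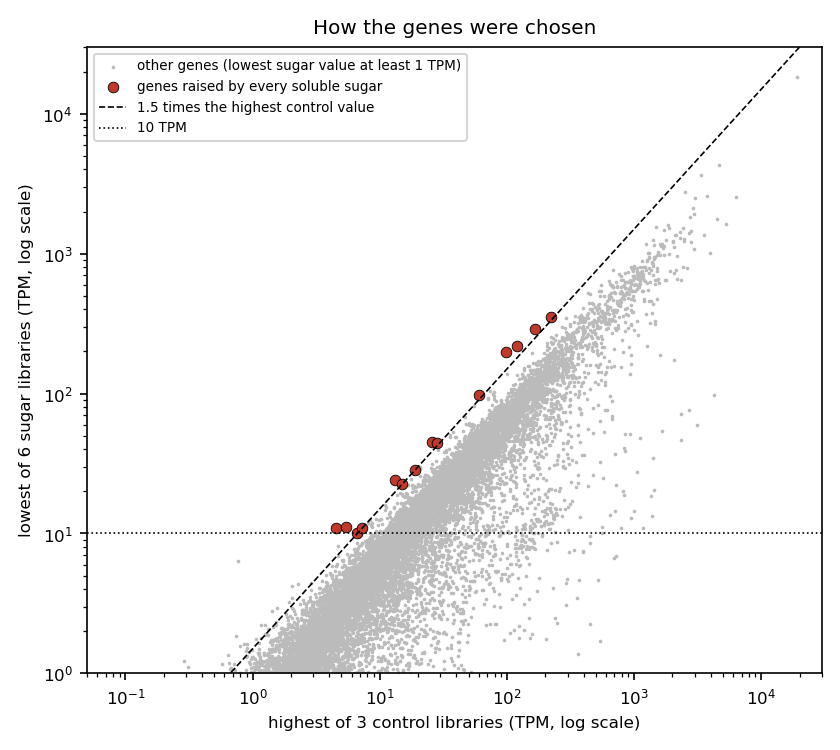
Highest of 3 control values against lowest of 6 sugar values in TPM, both on log axes, for each gene with at least 1 TPM in every sugar library of the rule and a control value above 0; red points are the 14 chosen genes, the dashed line is 1.5 times the highest control value and the dotted line is 10 TPM. The 14 genes sit on or just above the dashed line, with highest control values between 4.54 and 224 TPM, and the mass of other genes lies below it.

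At the edge of the rule, TR1594__c0_g1 was just inside with a ratio of 1.5, and TR11838__c0_g1 was just outside with a ratio of 1.498 (197.6 TPM mean in cellobiose, 103 in glucose, 85.5 in maltose and 52.7 in control). TR14828__c0_g2 was just inside the minimum level, with a lowest sugar value of 10.09 TPM, and TR7275__c0_g1 was just outside it with 8.12 TPM. The gene nearest to being dropped as high in cellobiose alone was TR9881__c0_g1, whose lowest cellobiose value was 2.47 times the highest value elsewhere. TR11838__c0_g1 belongs to the same assembly component as the chosen TR11838__c0_g2; whether the pair belongs to a single locus was not tested.

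Measured by means, the genes were 2.08 to 5.53 times as high in the 6 sugar libraries as in control, with a median of 3.55. Against control the ratio of means ran from 2.19 to 8.14 in cellobiose, from 1.65 to 9.05 in the glucose library and from 1.78 to 3.86 in the first and second maltose libraries. Together the 14 genes held 3478 ± 432 TPM in cellobiose (SD, n = 3), 1940 TPM in glucose, 1699 and 1435 TPM in maltose (the libraries numbered 1 and 2), and 715 ± 67.3 TPM in control (SD, n = 3). Between 23.2% and 37.1% of the sum in each of the 6 sugar libraries came from a single gene, TR9881__c0_g1 or TR8673__c0_g1, and these genes weigh most in it.

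**Figure D2:**
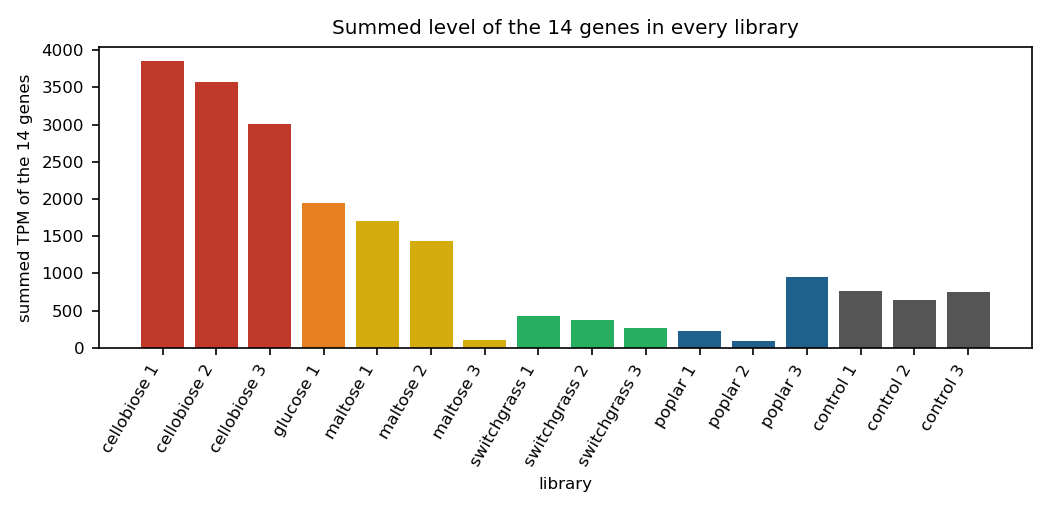
Summed TPM of the 14 genes in each of the 16 libraries, coloured by substrate. The 6 sugar libraries of the rule stand between 1435 and 3852 TPM because the genes were chosen so, the control libraries between 637 and 759.7, the switchgrass libraries between 269.6 and 424, the poplar libraries at 227, 88.1 and 948, and the third maltose library at 99.0.

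The most abundant gene of the set was TR9881__c0_g1. It had 1402, 1029 and 1047 TPM in the cellobiose libraries, 417 in glucose, 394 and 352.5 in the maltose libraries numbered 1 and 2, and 224, 163 and 204 in control. All 3 cellobiose values lay far above those of glucose and maltose, which were close together, and control lay below them. TR8673__c0_g1 had 417, 1326 and 663 TPM in cellobiose, 507 in glucose, 349 and 287 in maltose, and 167, 159 and 155 in control. Its control values were almost the same, with a coefficient of variation of 3.77%, whereas its cellobiose values varied widely, with a coefficient of variation of 58.7%. TR11838__c0_g2 had 896, 537 and 630.1 TPM in cellobiose, 283 in glucose, 321 and 219 in maltose, and 99.9, 86.8 and 120.3 in control. As in TR9881__c0_g1, the cellobiose values did not overlap with those of glucose and maltose.

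TR12141__c0_g1 had 403, 257 and 217 TPM in cellobiose, 198 in glucose, 233 and 206 in maltose, and 94.7, 68.1 and 99.0 in control. The sugars were at about the same level here, and the lowest sugar value was 2.00 times the highest control value. TR16491__c0_g1 was likewise alike among the sugars, at 183.9, 111 and 97.4 TPM in cellobiose, 162 in glucose and 121 and 129 in maltose, against 59.2, 59.5 and 60.2 in control. The control values of this gene were the tightest of the set, with a coefficient of variation of 0.891%.

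TR11373__c0_g1 had 138, 87.3 and 97.1 TPM in cellobiose, 68.2 in glucose, 24.6 and 22.7 in maltose, and 13.6, 15.02 and 10.9 in control. The values stepped down from cellobiose through glucose to maltose with no overlap between any of these groups. TR4186__c1_g2 had 52.5, 33.7 and 46.0 TPM in cellobiose, 17.9 in glucose, 13.8 and 11.03 in maltose, and 6.02, 5.73 and 7.28 in control, in the same order of substrates. TR18924__c2_g1 had 55.7, 35.7 and 39.2 TPM in cellobiose, 39.9 in glucose, 25.7 and 24.1 in maltose, and 10.6, 13.1 and 7.90 in control. In it glucose lay within the range of cellobiose, and maltose below both.

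TR10123__c0_g1 was the gene in which glucose was highest, at 45.1 TPM in the single glucose library, 26.3, 17.2 and 11.2 in cellobiose, 21.1 and 17.4 in maltose, and 5.39, 4.52 and 5.03 in control. No spread can be given for glucose. TR17790__c1_g2, the gene with the largest ratio of lowest sugar to highest control, had 18.6, 10.9 and 11.1 TPM in cellobiose, 14.5 in glucose, 14.6 and 11.9 in maltose, and 3.92, 2.82 and 4.54 in control. All 6 sugar values fell in a narrow band.

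The other 4 genes were TR19070__c0_g1, TR15402__c0_g1, TR1594__c0_g1 and TR14828__c0_g2. TR19070__c0_g1 averaged 62.1 ± 25.8 TPM in cellobiose (SD, n = 3), with 86.4 in glucose and 87.1 and 61.7 in maltose, and 21.3 ± 7.18 in control (SD, n = 3). TR15402__c0_g1 averaged 61.9 ± 21.9 TPM in cellobiose and 25.4 ± 2.86 in control, with 61.5 in glucose and 44.4 and 45.7 in maltose. TR1594__c0_g1 had the smallest ratio of means of the set, 2.08, with 38.6 ± 12.0 TPM in cellobiose and 17.3 ± 1.96 in control. In TR14828__c0_g2, at 27.7, 10.8 and 10.7 TPM in cellobiose and 6.57, 4.23 and 4.44 in control, the first cellobiose library was far above the others. The first cellobiose library was the highest of the 6 sugar libraries in 12 of the 14 genes and the second maltose library the lowest in 7. These counts are on unscaled values, and their shares over all tested genes were not computed. The scaling factor was 1.55 in the first cellobiose library, the largest of all, and 1.19 in the second maltose library, the smallest of the 6. With scaling the first cellobiose library stayed the highest of the 6 in most of the 14 genes, and the second maltose library was the lowest in fewer than without. Without the shares over all tested genes, the ranks were not shown to be particular to the 14 genes.

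**Figure D3:**
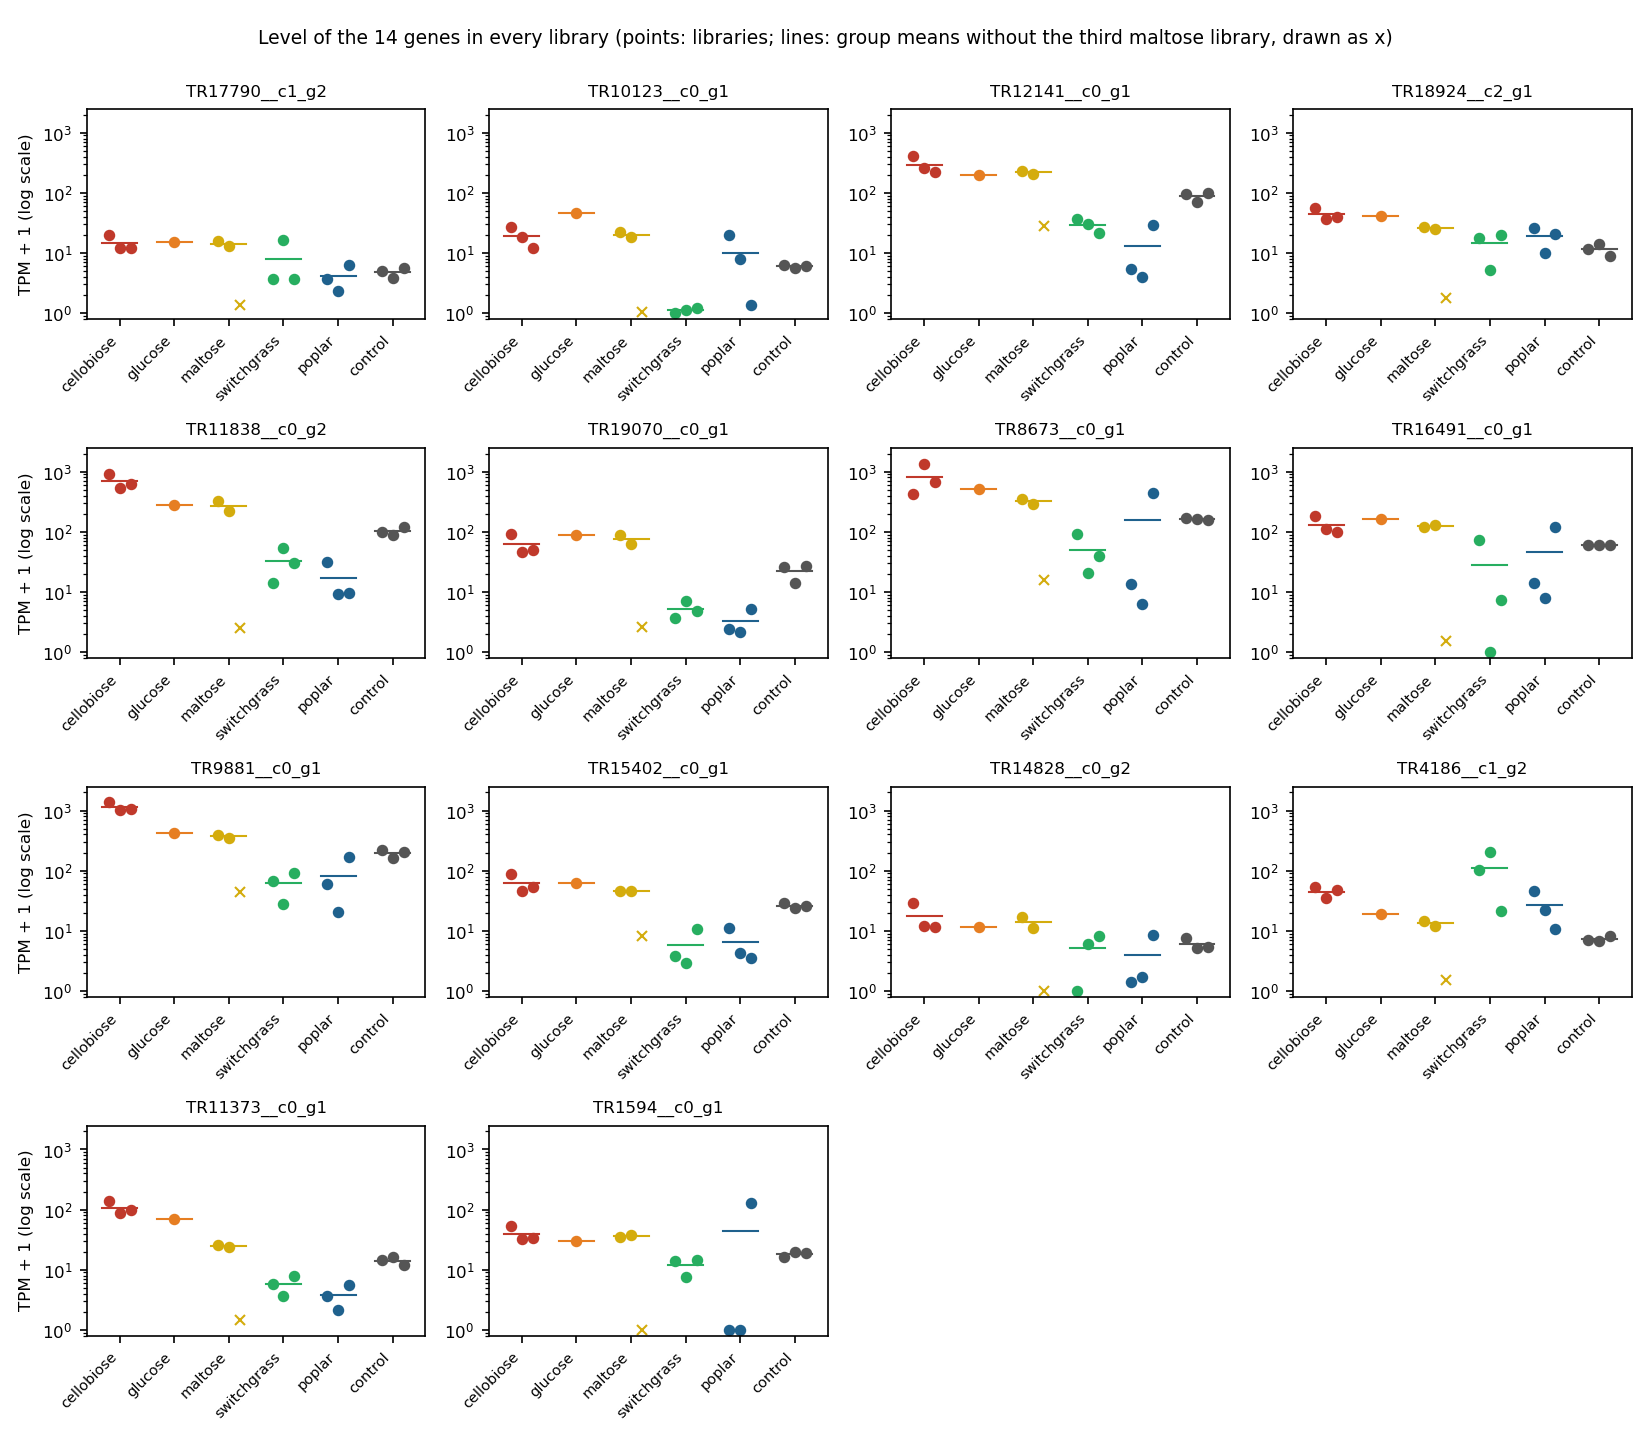
Level of each of the 14 genes in every library as TPM + 1 on a log axis, ordered by the ratio of the lowest sugar to the highest control value; points are libraries, lines are group means, and the cross is the third maltose library, which is in no mean. Sugar points lie above control points in every panel because the genes were chosen so, the cross lies below control in all 14, and the plant libraries scatter widely.

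The third maltose library, which the rule did not use, went the other way. All 14 genes were below the lowest control value there, and 2 of them, TR1594__c0_g1 and TR14828__c0_g2, were listed at 0. Over all tested genes 73.0% were below every control value in that library, so being below control there was common to most genes. The 14 genes summed to 99.0 TPM in it, and 3 of them had at least 10 TPM: TR9881__c0_g1 at 43.6, TR12141__c0_g1 at 27.5 and TR8673__c0_g1 at 14.7. They stood at 0 to 31.5% of their control mean, with a median of 7.55%. With this library among the sugars of the rule, 0 genes would qualify.

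Cellobiose and maltose, dimers of glucose that differ in the linkage, were compared across the genes with limma, a linear model with a shared estimate of the spread. It was fitted to log2(TPM + 1) of 15 libraries as 6 group means, without the third maltose library, with Benjamini-Hochberg adjustment over 23822 genes that reached 1 TPM in 3 or more libraries. All 14 genes passed that filter, which their minimum level ensures. The rule used these same libraries, with a floor in every one and a limit on the excess of cellobiose, so the calls describe the fit over all genes and are not independent of how the 14 were chosen. TR11373__c0_g1 was the one gene called, with a mean of 107 ± 26.9 TPM in cellobiose (SD, n = 3) and 23.7 ± 1.37 in maltose (SD, n = 2), a log2 fold change of 2.11 ± 0.51 (SE) and an adjusted p of 0.0156. That is 1 of 14 higher and 0 lower in cellobiose, where over all tested genes 6.11% were called, 0.949% higher and 5.16% lower. At an unadjusted p under 0.05 there were 4 of 14, beside 11.4% of all tested genes.

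The call of TR11373__c0_g1 was lost in 6 of 12 alternatives, kept in the same direction in 5 and reversed in 1. The adjusted p ranged from 0.0104 to 0.217 over the 11 in the same direction (limma). It was lost with a pseudocount of 0.1 (adjusted p = 0.0640), with all 16 libraries (0.1003) and without the first (0.0830) or the third cellobiose library (0.0505) or either maltose library (0.156 without the first and 0.217 without the second), all by limma. Under the names of the second table the gene was lower in cellobiose, with a log2 fold change of -2.66 (adjusted p = 0.000867, limma).

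The 3 other genes of the set with an unadjusted p under 0.05 did not pass after adjustment. TR9881__c0_g1 had a log2 fold change of 1.62 ± 0.70 (adjusted p = 0.347), TR11838__c0_g2 of 1.34 ± 0.62 (adjusted p = 0.419) and TR4186__c1_g2 of 1.73 ± 0.76 (adjusted p = 0.364), all by limma. All 3 cellobiose values were above both maltose values in 6 genes, these 3, TR11373__c0_g1, TR8673__c0_g1 and TR18924__c2_g1. Over all tested genes this held in 24.2%, and the count of 6 is not independent of the rule, which used these libraries. In a fit to the 2 groups alone TR9881__c0_g1 and TR4186__c1_g2 were also called, so 3 of 14 were, among 2835 genes in all. The median log2 fold change of the 14 genes was 0.38, beside 0.10 over all tested genes, and with median-of-ratios scaling 0.20 beside -0.01. At the other end TR17790__c1_g2 had a log2 fold change of -0.01 ± 0.64 and TR19070__c0_g1 of -0.31 ± 0.55, both smaller than their error, which does not show that the sugars act alike on them.

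The single glucose library lay above both maltose libraries in 8 of the 14 genes, beside 52.3% of all tested genes, and below all cellobiose libraries in 7, beside 22.1%. It was the highest of the sugar libraries in TR10123__c0_g1 and the lowest in TR12141__c0_g1 and TR1594__c0_g1. The rule used all of these libraries, so the counts are not independent of how the 14 genes were chosen. The count above both maltose libraries was near the share of all tested genes. With 1 library no test of glucose was made.

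On the plant substrates the chosen genes did not all lie on the same side of control, and such a split was not shown to be particular to them. The rule used these libraries only in its step on cellobiose excess, which dropped 0 genes. Because the genes were chosen for low control values and the preparations differ, these levels are set beside control as a description. TR12141__c0_g1, TR11838__c0_g2, TR19070__c0_g1, TR15402__c0_g1 and TR11373__c0_g1 were below every control value in all 6 plant libraries, beside 31.4% of all tested genes. TR12141__c0_g1 stood at 35.5, 29.2 and 20.2 TPM with switchgrass and 4.46, 3.03 and 28.4 with poplar, against at least 68.1 in control. TR19070__c0_g1 stood at 2.75, 6.17 and 3.81 TPM with switchgrass and 1.45, 1.15 and 4.13 with poplar, against at least 13.1 in control. With median-of-ratios scaling these 2 genes were still below every control value in all 6 libraries, beside 18.0% of all tested genes, and the other 3 were not. All 6 plant values were below every sugar value in 7 genes (the 5 above, TR9881__c0_g1 and TR14828__c0_g2), beside 22.9% of all tested genes, and with scaling in 6 (11.9%). The rule required high values in these same sugar libraries, which favours such an order. Neither count is therefore independent of how the genes were chosen, and the excess over all tested genes is not read as a result.

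With scaling the median difference of all tested genes from control moved from -0.59 to -0.03 in switchgrass and from -0.75 to 0.10 in poplar on the log2 scale. The median of the 14 genes moved from -1.71 to -0.77 in switchgrass and from -1.79 to -0.47 in poplar. Switchgrass was below control in every library in 9 genes (beside 37.7% of all tested) and with scaling in 4 (24.3%), and poplar in 5 (39.9%) and with scaling in 4 (24.0%). Their sum was 357 ± 79.0 TPM for switchgrass, 421 ± 462 for poplar and 715 ± 67.3 for control (SD, n = 3 each). With scaling the sum of the same 14 genes was 478 ± 96.1 for switchgrass, 590.4 ± 293 for poplar and 495 ± 57.4 for control, so that the poplar mean lay above control. The third poplar library carried that mean, at 929 against 436 and 406 in the others.

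TR4186__c1_g2 was the exception at the other end. It stood at 103, 207 and 20.5 TPM with switchgrass and 45.8, 20.8 and 9.56 with poplar, against 6.02, 5.73 and 7.28 in control. All 6 plant values were above every control value, with and without scaling, beside 3.53% of all tested genes and 13.8% with scaling. It was the 1 gene above control in every switchgrass library (8.21% of all tested genes) and, unscaled, the 1 gene above it in every poplar library (6.11%). The first and second switchgrass libraries were also above the highest cellobiose value of this gene, 52.5 TPM. TR18924__c2_g1 had 17.1, 4.17 and 19.1 TPM in switchgrass and 25.3, 8.98 and 19.5 in poplar, above the highest control value of 13.1 in 4 of 6 libraries. With scaling, poplar was above every control value in TR4186__c1_g2, TR18924__c2_g1 and TR17790__c1_g2, which is 3 of 14 beside 24.4% of all tested genes.

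Single plant libraries set several of the other values. The third poplar library had 446 TPM of TR8673__c0_g1, where the first and second had 12.7 and 5.39, and 127 TPM of TR1594__c0_g1, which was listed at 0 in both others. It was also highest for TR16491__c0_g1, at 118 TPM beside 13.1 and 7.03, and for 9 of the 14 genes among the poplar libraries; the second poplar library was lowest in 10. TR16491__c0_g1 was spread as widely in switchgrass, at 73.3, 0 and 6.34 TPM. The coefficient of variation within poplar and within switchgrass was larger than within control in all 14 genes, with medians of 68.2% in switchgrass, 86.8% in poplar and 15.7% in control. These counts are on unscaled values, and their shares over all tested genes were not computed. The scaling factors were 0.520, 0.217 and 1.02 in poplar, 0.918, 0.962 and 0.463 in switchgrass, and 1.42, 1.49 and 1.43 in control. A factor applies to every gene of its library, so neither the ranks nor the spread were shown to be particular to the 14 genes. With scaling the larger spread did not hold in all 14. In TR11373__c0_g1, for example, scaled poplar was at 5.05, 5.40 and 4.48 and control, spread more widely, at 9.57, 10.1 and 7.64.

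Switchgrass and poplar share a preparation and were compared with the same limma fit. Their libraries entered the choice of genes only through the step on cellobiose excess, which dropped 0 genes. None of the 14 genes was called (0 higher, 0 lower), where over all tested genes 0.109% were called, 0.0882% higher and 0.0210% lower. At an unadjusted p under 0.05 there were 3 of the 14, beside 8.29% of all tested genes, and their values were looked at for that reason. TR10123__c0_g1 had 0, 0.12 and 0.22 TPM in switchgrass and 19.2, 7.01 and 0.36 in poplar, and its log2 fold change was -2.44 ± 0.70 (adjusted p = 0.264). These values are kept apart only by 0.22 against 0.36 TPM, both very low. With scaling they overlapped, at 0.475 in the third switchgrass library and 0.353 in the third poplar library. TR12141__c0_g1 had a log2 fold change of 1.73 ± 0.60 (adjusted p = 0.437) and TR4186__c1_g2 of 1.81 ± 0.68 (adjusted p = 0.488). The median log2 fold change of the 14 genes was 0.53, beside 0.28 over all tested genes.

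These outcomes changed with the third poplar library. Without it TR10123__c0_g1 was called at a log2 fold change of -3.52 (adjusted p = 0.00208) and TR12141__c0_g1 at 2.61 (adjusted p = 0.00395), both by limma, among 1115 genes called in all. TR1594__c0_g1, named here after its values were seen, was called higher as well, at 3.53 (adjusted p = 0.000993, limma). That makes 2 of the 14 higher and 1 lower, beside 1021 higher and 94 lower among all 23300 genes tested without that library. When the third switchgrass library was left out, TR4186__c1_g2 was called at 2.74 (adjusted p = 0.0350). Over 13 alternatives the adjusted p ran from 0.00208 to 1 for TR10123__c0_g1, from 0.00395 to 1 for TR12141__c0_g1 and from 0.0350 to 1 for TR4186__c1_g2 (limma).

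**Figure D4:**
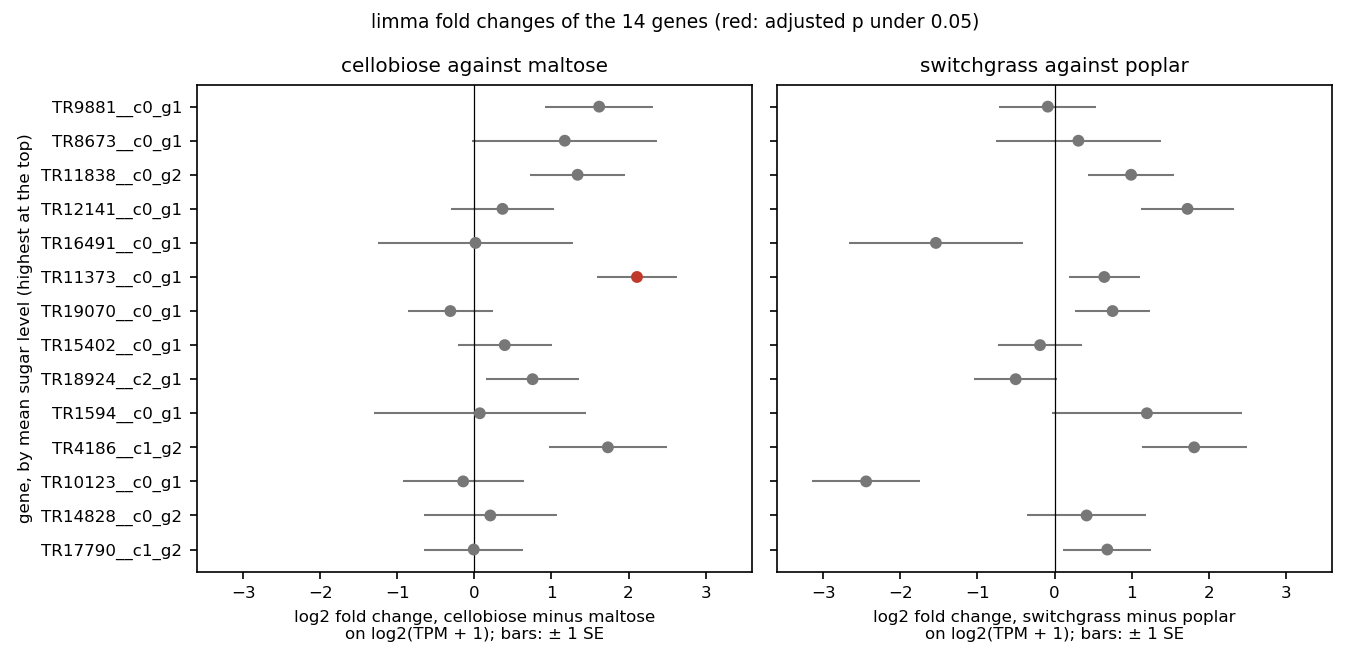
limma log2 fold changes of the 14 genes on log2(TPM + 1), cellobiose minus maltose at left and switchgrass minus poplar at right, with bars of 1 SE; genes are ordered by their mean sugar level, and red marks an adjusted p under 0.05. TR11373__c0_g1 is the one red point, at 2.11 in cellobiose against maltose, and TR10123__c0_g1 lies farthest below 0 in switchgrass against poplar, at -2.44.

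Isoform shares were not used by the rule, but the gene totals they are taken from were. Of the 14 genes 10 had 1 isoform, which is 71.4%, beside 74.8% of all tested genes and 65.1% of the 7248 genes with at least 10 TPM in every sugar library of the rule. The 4 others held 19 isoforms. In TR11838__c0_g2 the first of 3 isoforms had 63.9% to 67.4% of the gene in cellobiose, 59.5% in glucose, 58.2% and 60.6% in maltose and 59.9% to 61.9% in control. Its share varied more in the plant libraries, from 49.3% to 67.6%, and the third isoform was listed at 0 in the first switchgrass library. In TR4186__c1_g2 the isoform shares of most plant libraries differed from those of the sugar and control libraries. The preparation differs between these libraries too, and its effect cannot be told apart from that of the substrate. Isoform i1 had 54.1% to 70.5% of the gene's TPM in cellobiose, 61.9% in glucose, 77.9% and 83.2% in maltose and 68.3% to 78.5% in control.

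Isoform i4 of TR4186__c1_g2 carried most of the gene in 5 of 6 plant libraries, with 80.1%, 70.9% and 52.1% in switchgrass, 73.7%, 78.7% and 16.6% in poplar, and 11.1%, 14.8% and 14.01% in control. In TPM this isoform was at 82.55, 147.0 and 10.7 in switchgrass, 33.8, 16.4 and 1.59 in poplar, 0 to 1.82 in the 6 sugar libraries and 0.67 to 1.02 in control. On sugars the gene's higher level lay in i1 and i5 and, at 8.78 TPM in the first cellobiose library, i2. Isoform i5 was at 4.88, 9.03 and 19.4 TPM in cellobiose, 6.80 in glucose and 2.01 and 1.41 in maltose, against 0.58, 0 and 0 in control. On sugars i4 was above the highest control value only in the first cellobiose library, and its share was at most 3.47%. It was below the lowest control value in the third cellobiose library (0.24 TPM) and the first maltose library (0.31). In the glucose and second maltose libraries it was listed at 0. Among the 19 isoforms the share was below every control share in all 6 sugar libraries in 2, i4 of TR4186__c1_g2 and i2 of TR17790__c1_g2, beside 1.70% of all isoforms compared, and above it in 0 (1.73%). The rule required a higher gene total on sugars, which by itself lowers the share of an isoform that does not rise. These sugar counts are therefore not independent of how the genes were chosen. In the plant libraries the share was above every control share in 2, that i4 and i4 of TR18924__c2_g1, beside 2.71%, and below it in 1, i2 of TR17790__c1_g2, beside 4.65%. Most of these isoforms are at a few TPM, where RSEM splits reads among similar sequences by estimate, and i2 of TR17790__c1_g2 was at 0.60 to 0.75 TPM in control.

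**Figure D5:**
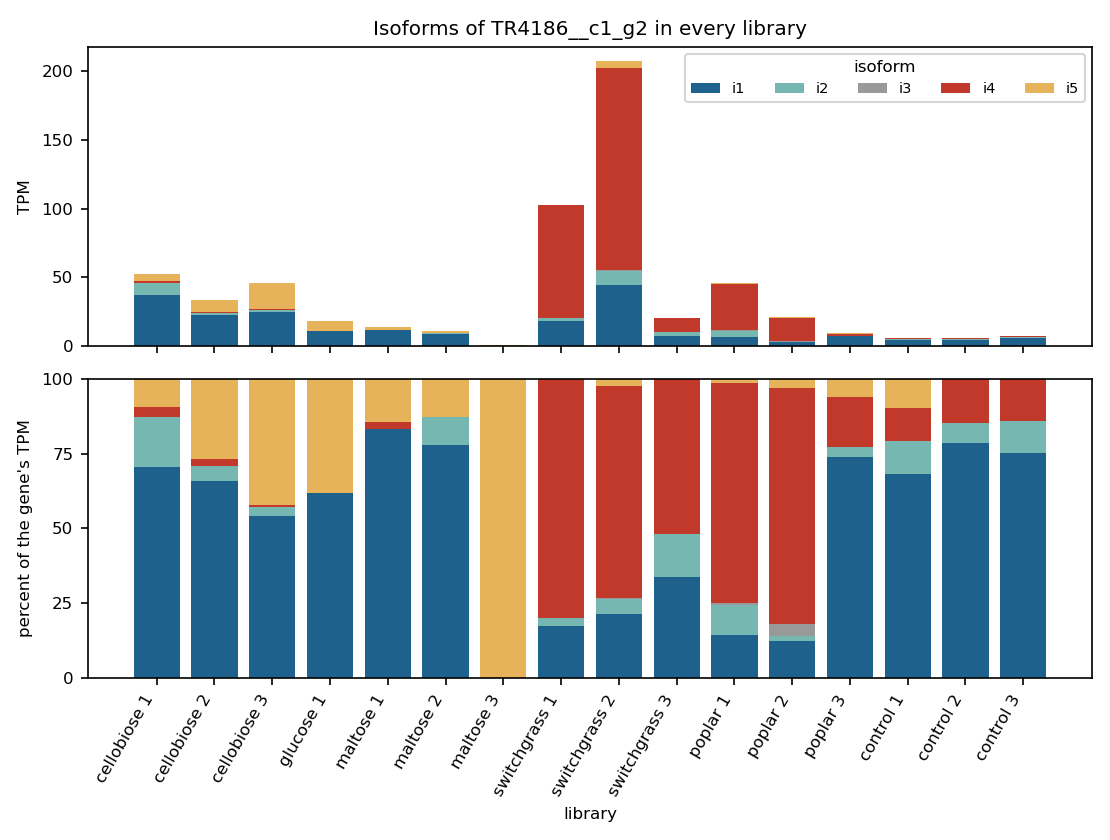
Isoforms of TR4186__c1_g2 in each of the 16 libraries, stacked as TPM above and as percent of the gene below. Isoform i1 takes most of the gene in the 6 sugar libraries of the rule, the control libraries and the third poplar library, and i4 in the other plant libraries, with 52.1% to 80.1%; the third maltose library has 0.52 TPM of the gene in all.

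Of the 14 genes 7 were the only gene of their component. TR11838__c0_g1, just outside the rule, went with TR11838__c0_g2, at 253, 155 and 184 TPM in cellobiose, 103 in glucose, 89.2 and 81.8 in maltose, and 54.6, 49.6 and 53.9 in control. TR1594__c0_g2 shared the peak of TR1594__c0_g1 in the third poplar library, with 124 TPM there and 6.42 and 2.34 in the others. On sugars TR1594__c0_g2 was at 18.4, 33.7 and 28.7 TPM in cellobiose, 31.5 in glucose and 34.5 and 35.3 in maltose. Control was at 20.0, 13.3 and 17.7, and of these sugar libraries only the first cellobiose library lay within that range. The neighbours of TR14828__c0_g2 did not share its pattern: TR14828__c0_g1 averaged 25.9 ± 17.4 TPM in cellobiose and 35.4 ± 18.8 in control, and TR14828__c0_g3 21.9 ± 5.54 and 21.7 ± 5.74 (SD, n = 3 each).

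Over 15 libraries the pattern of TR17790__c1_g2 on log2(TPM + 1) was most like those of TR19070__c0_g1 (Pearson r = 0.796), TR14828__c0_g2 (0.788) and TR12141__c0_g1 (0.775), and least like that of TR4186__c1_g2 (0.255). Among all 91 pairs of the 14 genes r ran from -0.44 to 0.96 with a median of 0.68. These points share the libraries by which the genes were chosen and the difference in preparation, so the values are descriptive.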

How the data were processed

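Expression was measured by RNA sequencing in 16 libraries. The deposited tables, both from the authors, give TPM for 45286 transcripts of an assembly; every column sums to 1000000 within 0.87, including in the table presented as holding expected counts. The submitters' processing notes name RSEM, without a version. Assembler, aligner, genome build and filters: not given in the sources used here. Since TPM keeps no read depth, the depth is unknown, no counting interval is given, and a value of 0 is reported only as listed at 0.

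Isoforms were summed to 27990 genes. limma 3.58.1 (R 4.3.3) with an intensity trend was fitted to log2(TPM + 1) of 15 libraries as 6 group means, without the third maltose library, over the 23822 genes that reached 1 TPM in 3 or more libraries; calls have a Benjamini-Hochberg adjusted p under 0.05. Fold changes on this scale understate changes of low genes. The procedure was tested on simulated data. The genes named were those with the largest ratio of lowest sugar to highest control, the highest sugar or plant levels, calls in either comparison, values at the thresholds of the rule and the pattern most like the first; the remaining genes of the set are named to account for all 14. The members, the rule and the lists were chosen with earlier results of these data known. The alternatives were another pseudocount, no filter, other sets of libraries, median-of-ratios scaling, the replicate number as a block, the second table's column names, and leaving out single libraries. Chosen after seeing the data were the rule and the sums under the second table's names and the plant counts and sums with scaling. Pandas 2.3.3 under Python 3.11.15 was used for the descriptions.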

Additional observations from a re-analysis of the deposited data

Results flagged for a closer look

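TR11373__c0_g1 drew attention because its changes against the same control libraries differed between cellobiose and maltose. The direct comparison gave a log2 fold change of 2.11 ± 0.51 (SE; limma, adjusted p = 0.0156), with 107 ± 26.9 TPM in cellobiose (SD, n = 3) and 23.7 ± 1.37 in maltose (SD, n = 2). All 3 cellobiose values were above both maltose values. The gene was chosen on these same libraries. The call was lost in 6 of 12 alternatives, among them a pseudocount of 0.1 (adjusted p = 0.0640) and leaving out the second maltose library (adjusted p = 0.217). With the column names of the second table the log2 fold change was -2.66.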

How the results depend on the processing

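Depth is unknown for every library, and with 3, 2 or 1 libraries a group a gene that was not called was not shown to be unchanged.

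The number of genes meeting the rule was 14. It was 3 with a ratio of 2, 0 with the third maltose library among the sugars, 6 under the second table's names and 14 to 30 with 1 library left out (30 without the second maltose library, 26 without the first control library). Median-of-ratios scaling gave 17, of which 9 were among the 14.

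In cellobiose against maltose 1 of the 14 genes was called. The number was 0 with a pseudocount of 0.1 and with all 16 libraries, 3 in a fit to the 2 groups alone, 10 under the second table's names (1 higher, 9 lower) and 0 to 1 with 1 library left out. In switchgrass against poplar it was 0, then 3 under the second table's names and 0 to 3 with 1 library left out. Under those names log2 fold changes turned sign: in cellobiose against maltose to -2.66 for TR11373__c0_g1, -2.80 for TR9881__c0_g1 and -3.28 for TR11838__c0_g2, and in switchgrass against poplar to -1.70 for TR12141__c0_g1 and -2.60 for TR4186__c1_g2. These names put other libraries in each group. Over all tested genes the calls ran from 116 (all 16 libraries) to 7928 (the second table's names) in cellobiose against maltose, with 1456 as reported, and from 0 (the 2 groups alone) to 1115 (without the third poplar library) in switchgrass against poplar, with 26 as reported and 273 with scaling.

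The summed level with scaling, over the 17 genes then chosen, was 2740 in cellobiose, 1521 in glucose, 1415 in maltose, 652 in switchgrass, 756 in poplar and 617 in control. Over the same 14 genes, an alternative chosen after seeing the data, it was 2389 in cellobiose, 1280.3 in glucose, 1219 in maltose, 478 in switchgrass, 590.4 in poplar and 495 in control; both ways the order of poplar and control turned against the unscaled sums, and over the 17 genes so did that of switchgrass and control. Under the second table's names, with the 14 genes kept, it was 357 TPM in cellobiose, 99.0 in glucose, 1819 in maltose, 715 in switchgrass, 3478 in poplar and 421 in control. With 1 library left out of the rule it ran from 3291 to 4969 TPM in cellobiose, 1940 to 2890 in glucose, 1502 to 2301 in maltose, 357 to 13789 in switchgrass, 421 to 12595 in poplar and 715 to 1043 in control; without the first cellobiose library the same 14 genes qualified, and without each other library further genes did as well.

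Same-numbered libraries of different groups did not deviate together (correlations from -0.19 to 0.11, above 0.1 in 2 of 26 pairs), and 1 of 12 libraries correlated best with its own number. With the replicate number as a block 1 of the 14 genes was called in cellobiose against maltose and 0 in switchgrass against poplar, as without it.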
